A study of Raphidocelis subcapitata with 72 samples.

Results

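The genes described here are 18 of the 12181 genes in the count table of a study of the unicellular green alga Raphidocelis subcapitata (0.148%). They were chosen by a rule on measured values, namely that at 1 h their level was low in the cultures labelled as the particle-free control and higher in both other groups, while at 4 h the 3 groups lay close together. All libraries came from strain ATCC 22662, grown in Sueoka's high-salt medium with CO2-enriched air under constant light and taken in mid-log phase. The cultures were labelled as free of particles, as given zero-valent iron nanoparticles (nZVI) at 100 mg/L, or as given magnetite nanoparticles (nFe3O4) at the same dose, and each was sequenced at 1 h and 4 h. Every group is given here under its label.

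Nanoscale zero-valent iron is metallic iron that corrodes in water, which releases ferrous iron and consumes dissolved oxygen, whereas magnetite is an iron oxide that already holds iron in its ferrous and ferric states. Algae need iron for the electron carriers of photosynthesis and respiration, and free ferrous iron can also give rise to reactive oxygen. A transcript's level reflects the balance of its synthesis and decay, so a level that differs at one time and not at another can arise through either.

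The files identify the 18 genes by locus identifier and do not pair the identifiers with gene names or products, so no role is given for any of them and no marker gene could be looked up to check the label of the organism. Levels are CPM, a gene's counts relative to the library's total, scaled by the trimmed mean of M-values (TMM) method. A CPM value is a share of a library, so less of a transcript in a cell and more of all other transcripts cannot be told apart. The 17 libraries used comprised 2 for nFe3O4 at 1 h and 3 for each of the other 5 groups, with 26322767 to 43364641 counts each. The columns named as nFe3O4 1 h replicate 2 repeated a column of replicate 1 and were left out.

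The names of the control and nZVI groups are in doubt. In a transformed table that the authors also deposited, the names of these groups were exchanged: over 49 genes, 12 of 12 control and nZVI libraries correlated best with the other group's name (Pearson's r across genes 0.945 to 0.991, against -0.779 to 0.432 with their own name). The 5 nFe3O4 libraries correlated best with their own name in 5 of 5 cases (0.955 to 0.988). None of the 18 genes was in that table (0 of 18). Read under the transformed table's names, the 18 genes would be low in nZVI cultures at 1 h and higher in particle-free and nFe3O4 cultures. Which naming is right cannot be told from these files.

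The rule worked on the log2 of a group's mean CPM plus 1. Genes had to average from 5 to below 1000 CPM over the 6 group means, which 7594 genes did (62.3%). At 1 h both differences, nFe3O4 minus labelled control and labelled nZVI minus labelled control, had to reach 1, and at 4 h both had to lie within 0.4 of 0. The 1 h condition was met by 320 of the 7594 genes (4.21%). Of these, 18 (5.62%) also met the 4 h condition, whereas 302 (94.4%) were higher than the labelled control in both groups at 4 h too, by more than the limit in at least 1 of them. Among the 320 genes, 106 (33.1%) were at least 1 higher in both groups at 4 h as well. The 4 h condition by itself was met by 4896 of the 7594 genes (64.5%).

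Among the 320 genes the 18 sat near the 1 h limit. Their lesser 1 h difference had a median of 1.09, against 1.43 for the other 302. It lay below 1.2 for 15 of the 18, and for 74 of the other 302 (24.5%). RSUB_02391, at 1.01, and RSUB_01518, at 1.02, were the closest inside the limit, and RSUB_02029, at 1.43, and RSUB_03285, at 1.24, were the farthest inside it. RSUB_11429 and RSUB_12614, both at 0.99, were the closest outside it among genes that met the other conditions, and 15 such genes lay between 0.9 and 1. At 4 h, RSUB_02555 (larger difference 0.39) and RSUB_04666 (0.37) were the closest inside the limit of 0.4, RSUB_02211 and RSUB_06150 (both 0.42) were the closest outside, and 15 genes lay between 0.4 and 0.5. These values describe the choice and carry no test. They show a set cut out of a continuous spread of genes by its limits.

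**Figure D1:**
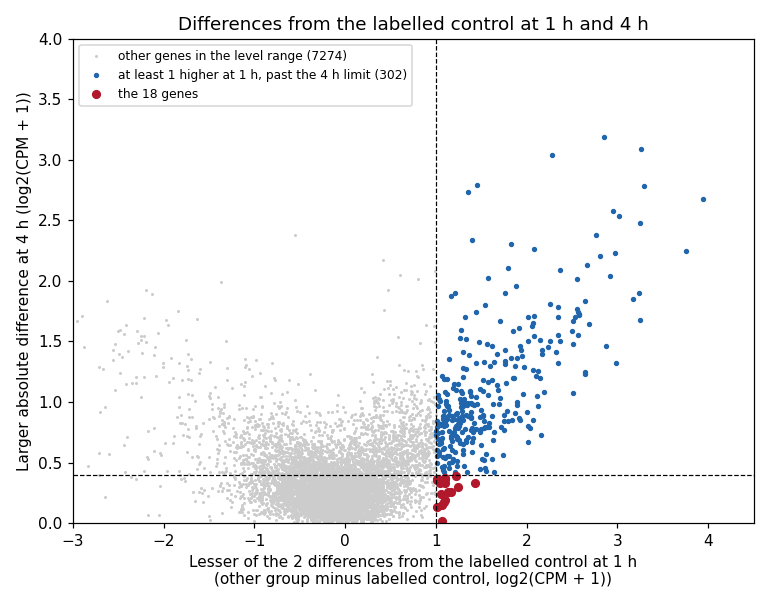
Each point is a gene in the level range, placed by the lesser of its 1 h differences from the labelled control (x axis) and the larger absolute 4 h difference (y axis), both on the log2(CPM + 1) scale, with dashed lines at the limits of 1 and 0.4. The 18 genes (red) fill the corner next to both limits, the 302 genes past the 4 h limit (blue) extend up and to the right of it, and 5 genes lie outside the drawn area.

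Most of the 18 genes were expressed at modest levels. Their mean over the 6 group means ran from 5.38 CPM in RSUB_03231 to 87.2 CPM in RSUB_07003, with a median of 15.6, against 17.9 for all genes in the level range. Of the 18, 10 (55.6%) were below 20 CPM, as were 54.1% of genes in the range. After RSUB_07003 the most abundant were RSUB_10628 (57.4 CPM), RSUB_04624 (42.2 CPM), RSUB_07311 (33.1 CPM) and RSUB_10364 (30.1 CPM). The within-group coefficient of variation had a median of 14.3% over the 18 genes (9.11% to 24.3%), against 10.6% for the genes in the range. These levels are not divided by gene length and are therefore not compared between genes beyond the depth they give.

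At 1 h the group mean of the 18 genes ran from 1.52 to 45.5 CPM in the labelled control (median 7.61), from 5.41 to 98.8 CPM in nFe3O4 (median 18.9) and from 4.38 to 121 CPM in labelled nZVI (median 19.5). As ratios of group means, the 18 genes were 2.05-fold (RSUB_10628) to 3.56-fold (RSUB_10562) higher in nFe3O4 than in the labelled control, with a median of 2.36. The ratios of labelled nZVI to the labelled control ran from 2.14-fold (RSUB_02391) to 3.62-fold (RSUB_02555), with a median of 2.73. All of these ratios were used to choose the genes.

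In 18 of 18 genes every labelled-control library at 1 h was below all 5 other 1 h libraries. The same held for 22.0% of genes in the level range. As the rule used that contrast, nothing is read from this count.

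At 4 h the groups had come together but the order largely remained. The labelled nZVI mean was above the labelled-control mean in 18 of 18 genes, by 0.0008 (RSUB_02105) to 0.39 with a median of 0.24 on the log2(CPM + 1) scale. The nFe3O4 mean was above it in 16 of 18, with differences from -0.13 to 0.39 and a median of 0.28; the exceptions were RSUB_02391 (-0.13) and RSUB_03285 (-0.11). In 2 of 18 genes, RSUB_10628 and RSUB_07845, every labelled-control library at 4 h was still below all 6 others, as was the case for 16.3% of genes in the range. The rule capped these 4 h differences without setting them to 0, so the groups are close at 4 h and are not shown to be equal. The other 302 genes that met the 1 h condition were all higher in both groups at 4 h too, so the signs are not particular to the 18. No test was made of these differences.

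**Figure D2:**
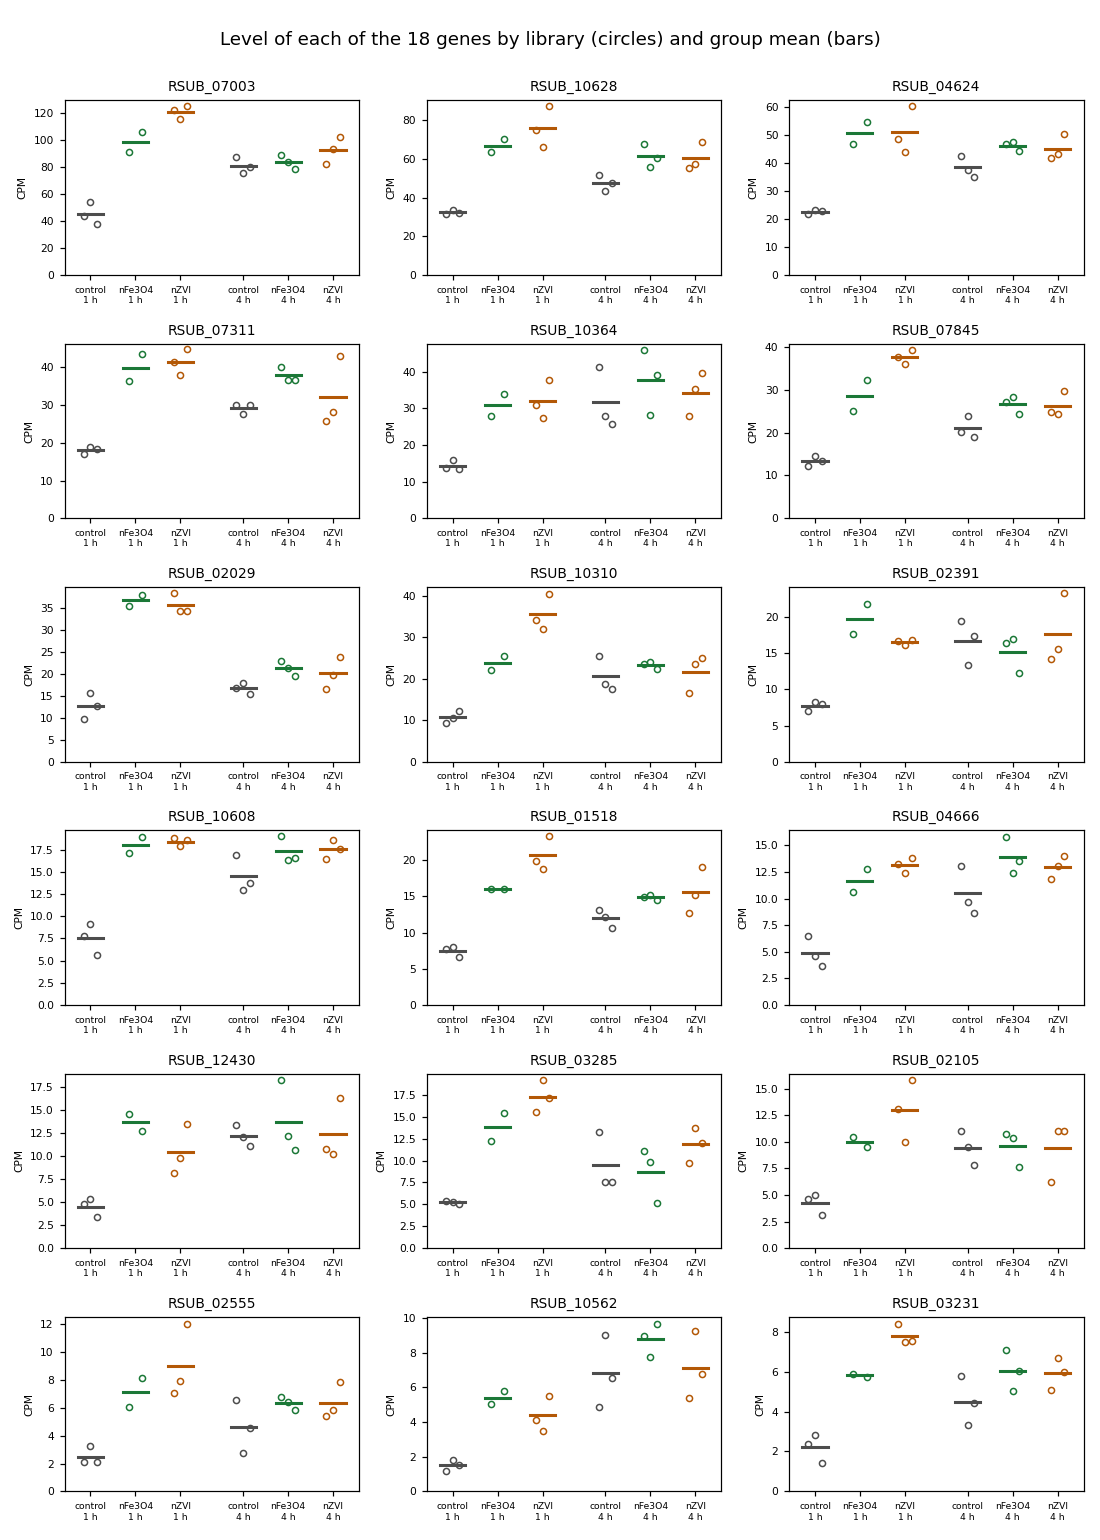
Level of each of the 18 genes in CPM (linear y axis from 0, 1 panel a gene), with 1 circle for each of the 17 libraries and a bar at each group mean; the group names are those of the labels. In each panel the 3 labelled-control libraries at 1 h lie below every other 1 h library, and at 4 h this holds in 2 of the 18 panels.

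The first comparison within a condition asked how the 18 genes changed between 1 h and 4 h in the labelled control. Nearly all rose: 17 of 18 passed edgeR's quasi-likelihood test over 11841 genes at a Benjamini-Hochberg adjusted p below 0.05, all upward, against 8.52% of the genes tested that were called higher. The log2 fold change ran from 0.40 to 2.15 with a median of 0.92, against a median of 0.01 over all genes tested. The direction is favoured by the choice, since the genes were picked for low values in the labelled control at 1 h and closeness at 4 h. For each of the 18 genes the labelled control's change had to exceed that of either other group by at least 0.6 on the log2(CPM + 1) scale. The tests between hours therefore describe sizes against the spread between libraries and are not independent support for a rise or a fall. Since no label ties the replicates to inocula of their own, a p-value here refers to the variation among these libraries, which may be technical. The labels' protocol reads as though the same flasks were sampled at both hours, without tying numbers to flasks.

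RSUB_10562 had the largest rise of the 18 in the labelled control. Its level was 1.20, 1.82 and 1.54 CPM in labelled-control replicates 1 to 3 at 1 h and 4.89, 9.01 and 6.53 CPM at 4 h. Every 4 h library was above every 1 h library, and the log2 fold change was 2.15 (SE 0.27 and adjusted p = 0.0001333 by the quasi-likelihood test of edgeR, Benjamini-Hochberg adjusted). In nFe3O4 it stood at 5.05 and 5.77 CPM at 1 h and at 8.99, 7.77 and 9.65 CPM at 4 h. In labelled nZVI it stood at 4.14, 3.50 and 5.52 CPM at 1 h and at 5.40, 9.27 and 6.76 CPM at 4 h. The hours did not overlap in nFe3O4 and overlapped in labelled nZVI, where the lowest 4 h library was below the highest 1 h library. The log2 fold change was 0.70 in each of these groups and passed in neither (adjusted p = 0.1117 in nFe3O4 and 0.05873 in labelled nZVI, same test). In labelled nZVI it did pass when labelled nZVI 1 h replicate 3, labelled nZVI 4 h replicate 1 or labelled-control 4 h replicate 1 or 2 was left out (log2 fold change 0.75 to 0.90, adjusted p = 0.03173 to 0.03588, same test). DESeq2 also called RSUB_10562 higher there (0.71, adjusted p = 0.03645). With the copied library kept, edgeR called it higher in both groups (0.71, adjusted p = 0.04509 in nFe3O4 and 0.75, adjusted p = 0.03745 in labelled nZVI). So did a fit with a replicate block within each condition, chosen after seeing the data.

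RSUB_12430 showed the next largest rise. Its level was 4.76, 5.33 and 3.41 CPM in the labelled control at 1 h and 13.4, 12.1 and 11.2 CPM at 4 h. The hours were well apart, 1.44 apart on the log2 scale (SE 0.25; adjusted p = 0.001181 by the quasi-likelihood test of edgeR, Benjamini-Hochberg adjusted). In nFe3O4 it was 14.6 and 12.8 CPM at 1 h against 18.2, 12.2 and 10.6 CPM at 4 h, and in labelled nZVI it was 8.15, 9.84 and 13.5 CPM against 10.7, 10.3 and 16.4 CPM. In both of these groups the hours overlapped, and neither change passed the test (log2 fold changes 0.01 and 0.25).

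RSUB_10608 was 1 of the 2 genes that the rule chose however a single library was left out. Its level was 7.74, 9.13 and 5.62 CPM in the labelled control at 1 h and 16.9, 13 and 13.7 CPM at 4 h. The rise, of 0.96 on the log2 scale (SE 0.15; adjusted p = 0.0006558 by the quasi-likelihood test of edgeR, Benjamini-Hochberg adjusted), left the labelled control overlapping the other groups. In those the hours overlapped and neither change passed the test, with nFe3O4 at 17.1 and 18.9 CPM at 1 h and 19.0, 16.4 and 16.6 CPM at 4 h, and labelled nZVI at 18.8, 17.9 and 18.6 CPM at 1 h and 16.5, 18.6 and 17.6 CPM at 4 h.

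RSUB_02029, the other such gene, was the only 1 of the 18 not called in the labelled control in the main fit. Its level in the labelled control was 9.63, 15.5 and 12.7 CPM at 1 h and 16.8, 17.8 and 15.4 CPM at 4 h. Replicate 2 at 1 h stood within the 4 h range, and the log2 fold change of 0.40 did not pass (SE 0.16; adjusted p = 0.09245 by the quasi-likelihood test of edgeR, Benjamini-Hochberg adjusted). Without that library it was 0.61 and passed (adjusted p = 0.02525, same test). A fit with a replicate block within each condition, chosen after seeing the data, also called it higher. In nFe3O4 the gene was at 35.5 and 37.9 CPM at 1 h and at 22.9, 21.3 and 19.4 CPM at 4 h. In labelled nZVI it was at 38.3, 34.3 and 34.2 CPM at 1 h and at 16.6, 19.7 and 23.8 CPM at 4 h. Here the other groups came down towards the labelled control, each with no overlap between the hours. It fell by 0.79 on the log2 scale in nFe3O4 (SE 0.17, adjusted p = 0.005192, same test) and by 0.83 in labelled nZVI (SE 0.15, adjusted p = 0.001462, same test). The nFe3O4 call was lost without nFe3O4 1 h replicate 3 (log2 fold change -0.74, adjusted p = 0.05868, same test).

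Among the 17 calls in the labelled control, 3 were lost when a single library was left out. RSUB_02555 was at 2.09, 3.26 and 2.11 CPM at 1 h and at 6.54, 2.76 and 4.52 CPM at 4 h in the labelled control, so replicate 2 at 4 h was within the 1 h range. Its change of 0.89 (SE 0.30; adjusted p = 0.04894 by the quasi-likelihood test of edgeR, Benjamini-Hochberg adjusted) lost its call in 12 of the 17 fits that left out 1 library, with adjusted p from 0.0135 to 0.278. The call held only without labelled-control replicate 2 of either hour, labelled nZVI 1 h replicate 1 or 3, or labelled nZVI 4 h replicate 3. RSUB_03285 was at 5.38, 5.30 and 5.08 CPM at 1 h and at 13.2, 7.57 and 7.55 CPM at 4 h. The hours did not overlap, but the change of 0.85 on the log2 scale (SE 0.26, adjusted p = 0.03472, same test) lost its call without any 1 of labelled-control 1 h replicates 1, 2 and 3 and 4 h replicate 1, with adjusted p up to 0.205. RSUB_03231, at 2.36, 2.82 and 1.44 CPM at 1 h and 5.76, 3.30 and 4.40 CPM at 4 h, rose by 1.03 (adjusted p = 0.008174, same test). That call was lost without labelled-control 4 h replicate 1 (adjusted p = 0.0511, same test). Outside the labelled control, RSUB_03285 came down in both groups with no overlap between the hours. In nFe3O4 it went from 12.2 and 15.4 CPM to 11.1, 9.83 and 5.19 CPM. In labelled nZVI it went from 15.5, 19.2 and 17.1 CPM to 9.77, 13.7 and 12.1 CPM. The log2 fold changes of -0.66 and -0.55 did not pass (adjusted p = 0.1362 and 0.149, same test).

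The other 11 genes that rose in the labelled control did so by 0.55 (RSUB_10628) to 1.15 (RSUB_02105) on the log2 scale. RSUB_10628 was at 31.5, 33.8 and 32.2 CPM at 1 h and at 51.5, 43.5 and 47.5 CPM at 4 h in the labelled control. All 4 h libraries were above all 1 h libraries, with an SE of 0.12 and an adjusted p of 0.004829 (quasi-likelihood test of edgeR, Benjamini-Hochberg adjusted). At 4 h it stood at 67.6, 56.0 and 60.6 CPM in nFe3O4 and 55.3, 57.4 and 68.5 CPM in labelled nZVI, still above every labelled-control library. In RSUB_10364 the labelled control went from 13.7, 15.9 and 13.4 CPM at 1 h to 41.3, 27.9 and 25.8 CPM at 4 h. At 4 h nFe3O4 stood at 46.0, 28.1 and 39.0 CPM and labelled nZVI at 27.9, 35.3 and 39.5 CPM. The labelled-control mean was still the lowest (31.7 CPM, against 37.7 CPM in nFe3O4 and 34.3 CPM in labelled nZVI). Only its replicate 1 was above the lowest nFe3O4 library. The 4 h libraries of these groups overlapped, and the rise was 1.15 (SE 0.21, adjusted p = 0.001613, same test).

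In nFe3O4 the numbers called between the hours were near the shares over all genes. Only RSUB_02029 was called lower (1 of 18, against 7.19% of genes tested) and none was called higher (0 of 18, against 5.33%) by the quasi-likelihood test of edgeR, Benjamini-Hochberg adjusted. At an unadjusted p below 0.05 there were 3, and DESeq2 also called 1. A fit with a replicate block within each condition, chosen after seeing the data, called 3, of which 1 was higher and 2 were lower. The median log2 fold change was -0.09 (-0.79 to 0.70), against 0.02 over all genes tested. This group had 2 libraries at 1 h, which limits what a fit can call there.

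In labelled nZVI 4 of 18 genes fell between the hours, against 9.54% of genes tested, and none rose (0 of 18, against 8.28%), by the same edgeR test with Benjamini-Hochberg adjustment. At an unadjusted p below 0.05 there were 9, and DESeq2 called 5, of which 4 were lower and 1, RSUB_10562, was higher. With the replicate number as a block there were 3, all lower. With a replicate block within each condition, chosen after seeing the data, there were 8, of which 7 were lower and 1 was higher. The median log2 fold change was -0.37 (-0.83 to 0.70), against -0.01 over all genes tested. As in nFe3O4, a fall was favoured by the choice, which used the values of both hours, so these counts and the median are a description. Beside RSUB_02029 the genes that fell in the main fit were RSUB_10310, RSUB_07845 and RSUB_07003. Leaving out a library added others, namely RSUB_10628 without labelled nZVI 1 h replicate 2 (log2 fold change -0.43, adjusted p = 0.02636, edgeR), and RSUB_07311 (-0.57, adjusted p = 0.0043, edgeR) and RSUB_01518 (-0.52, adjusted p = 0.01896, edgeR) without labelled nZVI 4 h replicate 3.

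RSUB_10310 was at 34.0, 31.9 and 40.5 CPM in labelled nZVI at 1 h and at 16.5, 23.5 and 24.9 CPM at 4 h. The hours were apart, and the log2 fold change was -0.71 (SE 0.17; adjusted p = 0.007411 by the quasi-likelihood test of edgeR, Benjamini-Hochberg adjusted). In nFe3O4 the gene stood at 22.0 and 25.5 CPM at 1 h and 23.6, 23.9 and 22.4 CPM at 4 h, overlapping, with a log2 fold change of -0.03. In the labelled control it rose from 9.25, 10.4 and 12.3 CPM to 25.3, 18.6 and 17.6 CPM. At 4 h the ranges of all 3 groups overlapped.

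RSUB_07845 had a like pattern. In labelled nZVI it was at 37.5, 35.9 and 39.3 CPM at 1 h and at 24.8, 24.2 and 29.7 CPM at 4 h. With no overlap between the hours, it fell by 0.52 on the log2 scale (SE 0.12; adjusted p = 0.008371 by the quasi-likelihood test of edgeR, Benjamini-Hochberg adjusted). In nFe3O4 it was at 24.9 and 32.2 CPM against 27.2, 28.3 and 24.3 CPM, and in the labelled control at 12.3, 14.4 and 13.3 CPM against 20.1, 23.9 and 19.0 CPM. The labelled control rose but stayed just under the others at 4 h.

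RSUB_07003, the most abundant of the 18, was at 122, 116 and 125 CPM in labelled nZVI at 1 h and at 82.4, 93.6 and 102 CPM at 4 h. It fell by 0.38 (SE 0.12; adjusted p = 0.03567 by the quasi-likelihood test of edgeR, Benjamini-Hochberg adjusted). This call was lost without any 1 of the 6 labelled nZVI libraries or the 3 labelled-control 4 h libraries, which is 9 of 17 fits (adjusted p from 0.0228 to 0.141 over the 17, same test). In the labelled control the gene went from 43.9, 54.4 and 38.2 CPM to 87.7, 75.7 and 80.0 CPM. In nFe3O4 it went from 91.2 and 106 CPM to 89.2, 84.0 and 78.5 CPM, and that change was not called (log2 fold change -0.24). The hours did not overlap in any of the groups.

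**Figure D3:**
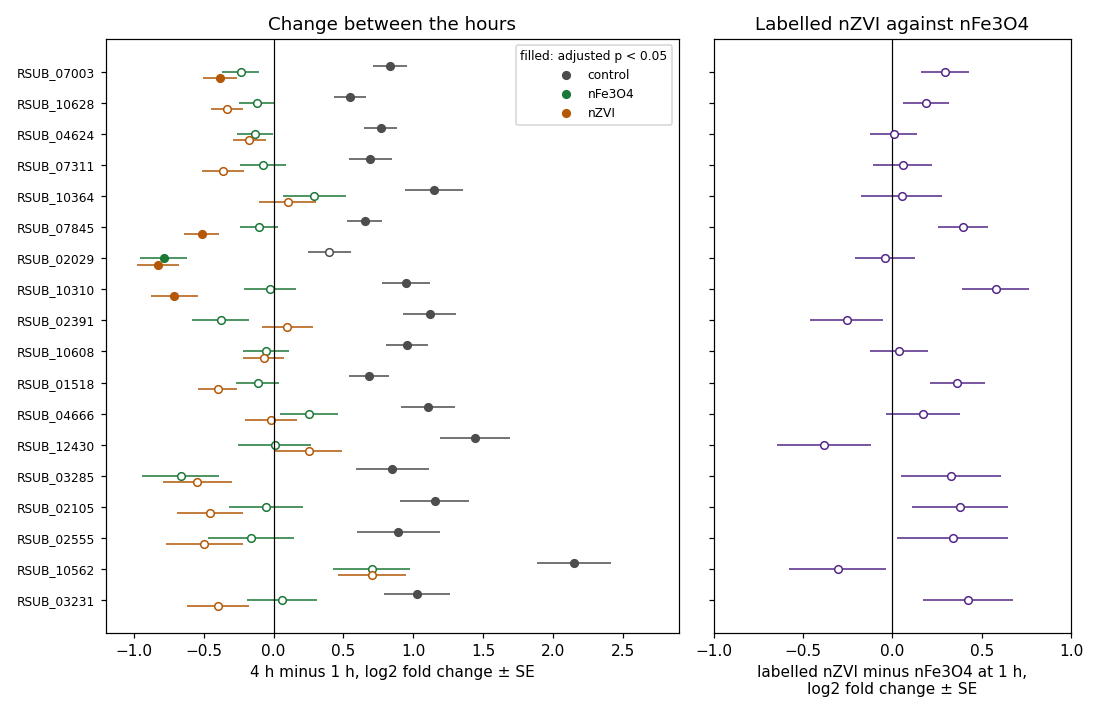
Left, log2 fold change from 1 h to 4 h of each of the 18 genes in the labelled control, nFe3O4 and labelled nZVI (points, bars ± SE, filled where edgeR's adjusted p was below 0.05); right, labelled nZVI minus nFe3O4 at 1 h. The labelled-control points lie at 0.40 to 2.15, to the right of both other groups in each gene, and no point on the right is filled.

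How the 3 groups came together differed between the genes. Taking the gap as the mean of both differences from the labelled control, it narrowed from 1 h to 4 h by 0.76 to 1.30 with a median of 0.95 on the log2(CPM + 1) scale. The labelled control's own rise made up a median of 78.3% of that narrowing. This share was lowest in RSUB_02029 (32.5%) and RSUB_03285 (57.0%). The means of both other groups came down there, which was not particular to these genes. From 1 h to 4 h the nFe3O4 mean went up in 5 of the 18 genes and the labelled nZVI mean in 4. The labelled control's share was 159% in RSUB_10562, where the mean of the other groups went up as well. It was over 100% in 4 of the 18 genes (RSUB_10364, RSUB_04666, RSUB_12430 and RSUB_10562). These shares use the values that chose the genes and are a description.

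The comparison of labelled nZVI with nFe3O4 at 1 h asked how far apart these groups were in the 18 genes. The 1 h values of both groups entered the rule, which held both at least 1 above the labelled control and left the sign between them free. The values are therefore a description against the spread between libraries. None passed the quasi-likelihood test of edgeR, Benjamini-Hochberg adjusted (0 of 18, against 3.08% of all genes tested called in either direction), and DESeq2 called 0. At an unadjusted p below 0.05 there were 4, all higher in labelled nZVI, namely RSUB_10310, RSUB_07845, RSUB_01518 and RSUB_07003. Of the 18 estimates, 14 were above 0 and 4 below, with a median of 0.18 (-0.38 to 0.58), against 0.02 over all genes tested. The extremes were RSUB_10310 at 0.58 (SE 0.19, adjusted p = 0.1031, same test) and RSUB_12430 at -0.38 (SE 0.26, adjusted p = 0.4617, same test). A p that misses the threshold does not show that the levels were the same. With the copied library kept as a further replicate, RSUB_10310 (0.60, adjusted p = 0.03618) and RSUB_07845 (0.45, adjusted p = 0.04497) passed edgeR's test, which then counted 1 library more than once.

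The genes that fell in labelled nZVI and were not called in nFe3O4 are not shown to differ between those groups. The difference of the changes was tested as a comparison added after the data had been seen. By the quasi-likelihood test of edgeR, Benjamini-Hochberg adjusted, 0 of 18 passed, against 0.388% of all genes tested, and 2 had an unadjusted p below 0.05; DESeq2 was not run for it. They were RSUB_10310, with a difference of -0.68 (SE 0.25, adjusted p = 0.3517), and RSUB_07845, with -0.41 (SE 0.18, adjusted p = 0.474), both from that edgeR fit.

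Within groups, many of the 18 genes were high in the same library. Labelled-control 1 h replicate 2 was the highest of its group in 15 of the 18 genes, against 31.1% of genes in the level range. In the other groups the library that was most often highest was nFe3O4 1 h replicate 3 (15 of 18, against 51.9%), labelled nZVI 1 h replicate 3 (14 of 18, against 42%), labelled-control 4 h replicate 1 (14 of 18, against 42.5%), nFe3O4 4 h replicate 1 (12 of 18, against 26.4%) and labelled nZVI 4 h replicate 3 (14 of 18, against 37.8%). Deviations from the group mean on the log2(CPM + 1) scale ran from -0.59 to 0.49. The choice can favour or disfavour genes that are high in a given library. A high labelled-control 4 h replicate 1 helps a gene to meet the 4 h limit. A high labelled-control 1 h replicate 2 instead makes the 1 h limit harder to meet, and the rule chose 27 genes without that library. Why the same libraries were often highest was not tested. These counts are a description, and counts over the 18 genes are not taken as counts of separate observations.

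**Figure D4:**
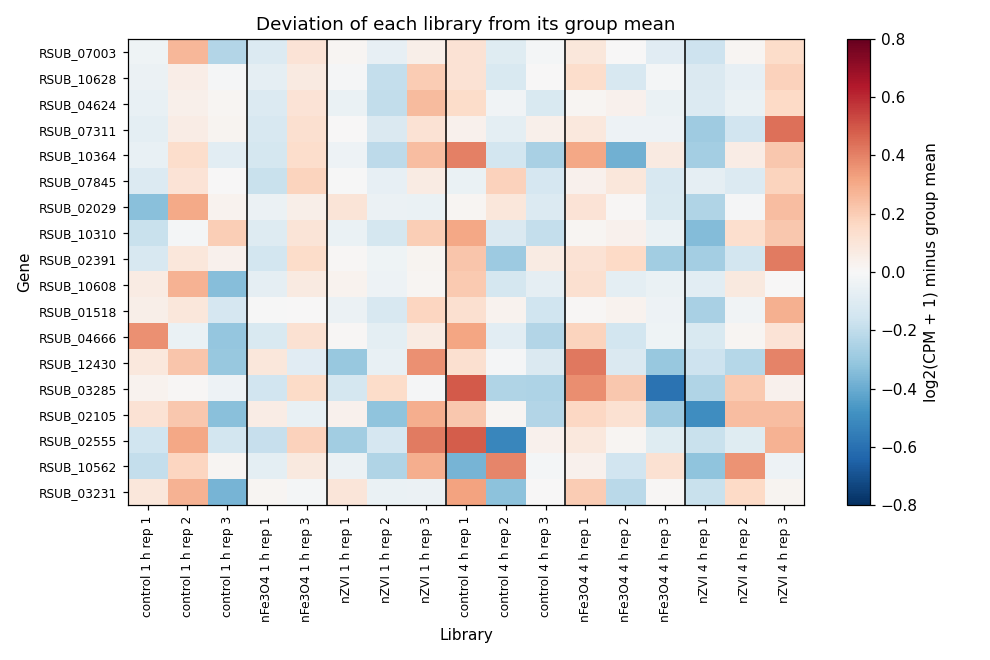
Deviation of each of the 17 libraries (columns, lines between groups) from its group's mean for each of the 18 genes (rows), on the log2(CPM + 1) scale, with red above and blue below the mean; values run from -0.59 to 0.49. Columns such as labelled-control 1 h replicate 2, labelled-control 4 h replicate 1 and labelled nZVI 4 h replicate 3 are red in most rows.

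Membership also moved with single libraries. When the rule was applied again without each of the 17 libraries in turn, RSUB_02029 and RSUB_10608 were chosen in 17 of 17 cases, and the 18 genes were chosen in a median of 14.5. RSUB_02391, the closest to the 1 h limit, was chosen in 11. Without labelled-control 4 h replicate 1 the rule lost 8 of the 18 genes, and in 5 of the 17 cases it lost none.

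The authors' own tables are given with their names. The authors' deposited table for nZVI versus control at 1 h listed 18 of the 18 genes, all with negative log2 fold changes (-1.91 to -1.02, median -1.45). It held 7380 genes in all, where the count table has 12181. The authors' deposited table for nZVI versus nFe3O4 at 1 h also listed 18 of 18, all negative (-1.83 to -0.98, median -1.23), among 6643 genes in all. In the authors' deposited table for nFe3O4 versus control at 1 h there were 10 of the 18, among 4601 genes in all. Of the 10 values, 8 were negative and 2 positive (-0.56 to 0.44). If the names were exchanged there as well, this last comparison is labelled nZVI with nFe3O4 at 1 h, its sign turned. The authors then listed 10 of the 18 where 0 of 18 passed here. Their standard errors for these genes were smaller, such as 0.056 for RSUB_07003 and 0.081 for RSUB_10310, against 0.134 and 0.188 here. Why the calls and the errors differ was not tested. Both nZVI tables at 1 h place the genes low in nZVI. This is the direction of the transformed table's names and the opposite of the count table's. They come from the same cultures as the values the rule used and are not separate evidence.

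At 4 h the authors' deposited table for nZVI versus control listed 10 of the 18 genes, all negative (-0.43 to -0.17, median -0.31), among 5645 genes in all. The authors' deposited table for nZVI versus nFe3O4 at 4 h listed 11, all negative (-0.47 to -0.23, median -0.35), among 5815 genes in all. Those tables hold only genes under the authors' threshold. For the 10 and 11 listed genes the difference was smaller than at 1 h and in the same direction. As the tables listed many of all genes too, nothing particular to the 18 is read from these counts. The authors' deposited table for nFe3O4 versus control at 4 h listed 2 of the 18, among 1587 genes in all. They were RSUB_07003 (-0.17) and RSUB_03285 (-0.44). In the authors' deposited table of 4 h against 1 h there were 5 of the 18, among 5408 genes in all. Of the 5, 4 had positive values, among them 0.97 for RSUB_10562, and RSUB_02029 had a negative one of -0.49. That comparison names no condition, so it is unlike those made here within 1 condition.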

How the data were processed

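Poly(A) RNA was sequenced with a strand-specific kit, per the labels' protocols. The submitters' processing notes name HISAT2, SAMtools, bedtools 2.27.1, Trimmomatic, bcl2fastq, DESeq and DESeq2 without roles. Genome build, annotation and how reads were counted, strand included: not given in the sources used here. Whole read counts per gene and lane, not normalized, were deposited by the authors. A further table by the authors holds 50 genes as transformed log2 values, and there are, per the file headers, 7 tables of DESeq2 output with a log2 fold change, other values (mean normalized count and standard error), a Wald score, and raw and adjusted p-values. These deposited values are quoted as the authors' and entered no test.

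Lanes were summed to 17 libraries. The members and lists were chosen with earlier results of these data known. TMM-scaled CPM on all 12181 genes gave the rule its values. Differences were tested in edgeR 4.0.16 (R 4.3.3) by the quasi-likelihood test, with 1 model of 6 groups; the low-count filter removed 340 genes and left 11841. Adjustment was by Benjamini-Hochberg over all genes tested, with calls at 0.05. All 18 genes passed the filter. The naming rule took the 2 largest called rises and falls of each comparison, the 2 genes farthest from and nearest to the 1 h limit with the 2 next outside it, and the 2 most abundant; other genes named were chosen after their values were seen. Alternatives were other scaling, filters, pseudocounts, limits, lane 1 alone, DESeq2, a replicate block and leaving out each library.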

Additional observations from a re-analysis of the deposited data

How the results depend on the processing

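The number of genes the rule chose was 18. It was 16 with relative log expression (RLE) size factors (15 shared), 22 with a pseudocount of 0.5 (17 shared), 32 with lane 1 alone (11 shared), 16 with the copied library kept (14 shared), 13 with group medians (8 shared), 9 with a 4 h limit of 0.3, and 10 to 28 without 1 library. The lowest of these came without labelled-control 4 h replicate 1 and the highest without its replicate 3. TMM factors taken after the filter, an alternative chosen after seeing the data, left the 18.

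In the labelled control the 17 genes changed between hours became 14 to 17 without 1 library. Labelled nZVI against nFe3O4 at 1 h gave 0 except with the copied library kept, which gave 2. For 4 h against 1 h in nFe3O4 the 1 gene became 2 with the copied library kept and 0 to 1 without 1 library. In labelled nZVI the 4 became 1 with lane 1 alone and 3 to 5 without 1 library. No estimate of the 18 genes reversed with a call under any alternative run.

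Same-numbered 1 h and 4 h libraries deviated together in some conditions and not in others (r 0.0103 to 0.155 in the labelled control, 0.525 to 0.731 in nFe3O4 and -0.0429 to 0.569 in labelled nZVI, with 4 of 8 libraries at 1 h closest to their own number), so the numbers were not taken to pair libraries. With the replicate number as a block the calls were 16 in the labelled control, 1 in nFe3O4, 3 in labelled nZVI and 0 between groups at 1 h. A replicate block within each condition, chosen after seeing the data, gave 18 in the labelled control (RSUB_02029 added, adjusted p = 0.04255), 3 in nFe3O4 (1 higher, 2 lower) and 8 in labelled nZVI (1 higher, 7 lower). RSUB_10628, RSUB_07311 and RSUB_01518 were called lower in labelled nZVI in that fit, and RSUB_10562 was called higher in both.

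The fewest counts lay behind RSUB_03231, RSUB_10562 and RSUB_02555, and whether depth limits their calls was not tested. The cause of the changes with lane 1 was not tested.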

Other observations

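The locus numbers next to those of the 18 genes (1 below or 1 above) belonged to 35 other genes in the table. None of the 35 was among the 18 (0), and 6 had both 1 h differences from the labelled control over 0.5 on the log2(CPM + 1) scale, as did 1370 of all 12181 genes (11.2%). Genome locations were not used here, so neighbouring numbers are not shown to be neighbouring genes.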
